A study of Mus musculus with 19 samples.

Results

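The genes described here encode the cytosolic factors that start and extend protein synthesis, together with a few proteins that bind or modify them. They were chosen by name and depth: gene symbols beginning with Eif1 to Eif6, Eef1 or Eef2 and an expected count of at least 10 in at least 5 of the 19 libraries, leaving out Eif2s3x, Eif2s3y, the eIF2 kinases and pseudogenes. Of 62 genes with such a name 58 met the count rule, out of 53558 genes in the files. The rule used no comparison between groups. All 58 also passed the low-count filter of the test, which kept 13986 genes.

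Translation begins when eIF2 brings the initiator methionyl-tRNA to the small ribosomal subunit, helped by eIF1, eIF1A, eIF5 and the large eIF3 complex, and when eIF4E, the scaffold eIF4G and the helicase eIF4A bind and unwind the capped end of the mRNA. In elongation, eEF1A delivers each aminoacyl-tRNA and eEF2 moves the ribosome along by one codon. In tumors these steps are known targets of growth signaling, since mTORC1 releases eIF4E from the 4E-BP proteins and AMPK, a kinase that LKB1 activates, acts on eEF2 through its kinase.

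The 19 libraries came from neoplastic lung cells of mice whose Cre-dependent alleles include R26LSL-tdTomato and H11LSL-Cas9. All tumors were grown for 17 weeks after lentiviral Cre was given into the trachea, in mice of both sexes that were young adults at initiation and of mixed strain background, so all groups share the mouse genotype, Cas9 and a viral vector and differ in the guides. In 7 libraries (sgInert) the vector Lenti-sgNeo1/sgNT/sgNeo2/Cre carries inert guides. In 7 libraries labelled sgCebpa/b/d it carries guides to Cebpa, Cebpb and Cebpd, genes of C/EBP transcription factors. In 5 libraries (sgLkb1) Lenti-sgLkb1/Cre carries a guide to Stk11, the gene of the kinase LKB1. Editing by Cas9 differs from cell to cell and need not lower the RNA of its target, and a library is a mixture of such cells.

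The libraries are not all independent mice, and the groups differ in sex and title series. The titles number 6 animals for the 7 sgInert libraries, but only 2 for 4 of the sgCebpa/b/d libraries and 2 for 3 of the sgLkb1 libraries. The other 3 sgCebpa/b/d libraries (all male) and 2 sgLkb1 libraries carry no animal number. The numbered ones begin with ZR (4 sgInert libraries) or MT (10 libraries of all 3 groups), and what these letters stand for is not given in the sources used here. The 5 without a number stood apart: Ptprc, which encodes CD45, was at 3.39 to 21.63 TPM in them and at most 1.42 TPM in the 14 others, although CD45, CD31, F4/80 and Ter119 were sorted against. The p-values below therefore measure the spread between libraries, part of which is within animals. Total expected counts ran from 2760731 to 9944134 a library.

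The targeted genes bear on the labels. Stk11 was at 9.23, 7.53, 7.58, 12.5 and 8.30 CPM (counts scaled to the size of each library) in the 5 sgLkb1 libraries and at 19.5 or more in every sgInert library, a log2 fold change of -1.24 ± 0.17 (SE, edgeR adjusted p = 0.000107). Cebpa went the other way, from 42.7 to 68.8 CPM (median 58.2) in sgInert to 71.9 to 125 (median 93.2) in the sgCebpa/b/d libraries, with a log2 fold change of 0.73 ± 0.14 (adjusted p = 0.00148). Cebpb was at 3.98 to 5.11 CPM in the 4 numbered sgCebpa/b/d libraries and at 15.8, 16.2 and 23.6 in the 3 without a number, against 3.06 to 6.58 in sgInert, and its difference was not called (adjusted p = 0.0524), nor was that of Cebpd (adjusted p = 0.742). None of the 3 guide targets was called lower. The RNA therefore does not show the editing, and every direction given for the libraries labelled sgCebpa/b/d rests on that label.

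The 58 genes took 1.29% to 1.59% of the counts in sgInert (median 1.38%), 1.11% to 1.42% in the libraries labelled sgCebpa/b/d (median 1.30%) and 1.54%, 1.48%, 1.60%, 1.63% and 1.52% in sgLkb1. All sgLkb1 shares lay above the sgInert median and above every sgCebpa/b/d share, and the ranges of sgInert and each other group overlap. Per length, in TPM (transcript levels scaled to length and library), Eef1a1 led with a median of 5068 TPM over the 19 libraries, followed by Eif1 (1190) and Eif4a2 (891). The lowest were Eif3j1 (3.21 TPM), Eef1akmt4 (1.48) and Eef2k (0.44).

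**Figure D1:**
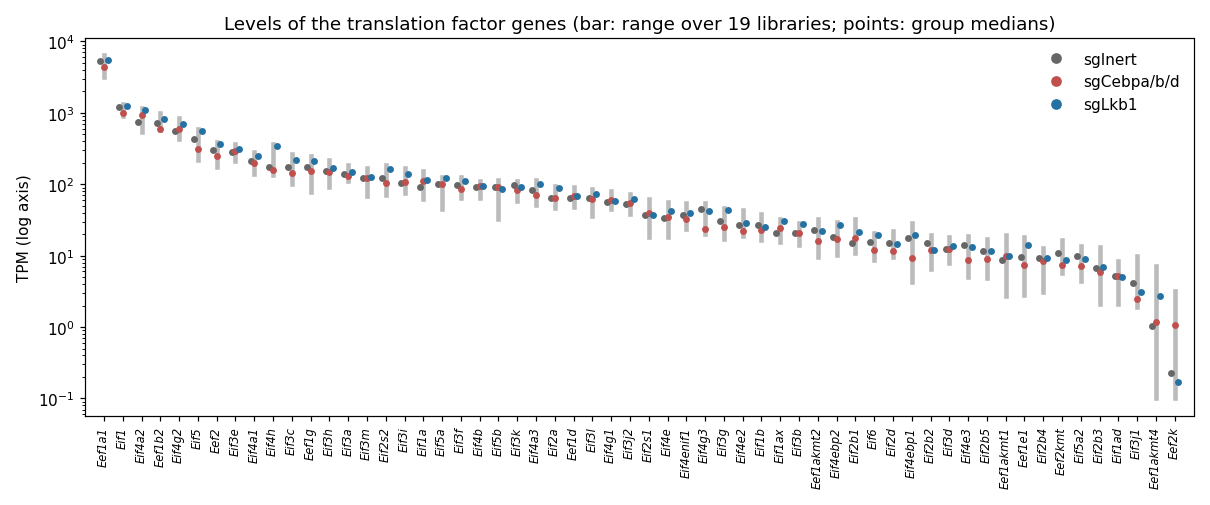
Level of each of the 58 genes in TPM on a log axis, ordered by the median over all libraries. Grey bars give the range over 19 libraries and points the group medians, with values under 0.1 TPM drawn at 0.1. The medians run from 5068 TPM for Eef1a1 to 0.44 TPM for Eef2k, and the order of groups changes from gene to gene.

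Genes near the count rule were almost silent or sparse. Eef1a2, the muscle and neuron form of eEF1A, and Eif4e1b, an oocyte form of eIF4E, had 0 counts in every library, which at these depths allows up to 3 counts a library, while Eif2c5 reached 5 counts and Eif4ebp3 reached 10 in 1 library only. Just inside were Eef1akmt4 (at least 10 counts in 7 libraries), Eef2k (9), Eef1akmt1 (17) and Eif4ebp1 (18). The sparse members among these carry wide errors. Eef2k met the rule mostly through the libraries labelled sgCebpa/b/d, with 21, 26, 18, 40, 6, 12 and 16 counts. It had 0 to 14 counts in sgInert and 0 to 15 in sgLkb1. Values of Eif3j1 and Eif3j2, which are near-identical, and of Eef1a1, which has processed pseudogenes, are less certain because RSEM divides shared reads by a model.

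The libraries labelled sgCebpa/b/d had lower levels of several core factors than sgInert. Of the 58 genes 8 were lower and 1 was higher at an adjusted p under 0.05, or 13.8% and 1.72%, where among all 13986 genes tested 5.36% were lower and 4.73% were higher. The 8 were Eif4g3, Eef1a1, Eif3c, Eef2, Eif1, Eif4e3, Eif5 and Eif2d, and the gene that rose was Eif4a2. The median log2 fold change of the 58 genes was -0.15, with 45 below 0, and that of all genes was 0.02. The changes were small: none of the 9 passed an absolute log2 fold change of 1. Without the 5 libraries that have no animal number, 2 of the 58 (3.45%) were lower (Eif1 and Eif4g3) and 1 (1.72%) was higher (Eif1ax). There 3.46% of all genes were lower and 2.8% higher, and the median of the 58 was -0.15 (all genes -0.0091). The MT-numbered libraries alone, which also leave those 5 out, gave 7 of the 58 lower (12.1%), where 4.25% of all genes were lower. The larger share of lower genes was thus seen in the second of these fits but not in the first. Over all libraries of these groups, 5 of the 58 (8.62%) had no sgCebpa/b/d library overlapping any sgInert library, against 3.37% of all genes.

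In sgLkb1 against sgInert 2 of the 58 were called higher, Eif4h and Eif4a2, or 3.45% against 2.81% of all genes. None was lower by edgeR, DESeq2 or limma, where 2.97% of all genes were lower by edgeR, and 3 of the 58 were lower at an unadjusted p under 0.05. Their median log2 fold change was -0.03 (all genes -0.01). By limma on log2(TPM + 1) the median of all genes was 0.18, with 1.06% of them lower and 5.6% higher. The lack of lower calls by limma therefore adds little. Without the libraries that have no animal number Eif4h was the one call, higher (1.72% of the 58, where 1.73% of all genes were higher and 2% lower). All 5 sgLkb1 libraries are from females, while 4 of the 7 sgInert libraries are from males. With sex as a covariate Eif4h was higher and Eef1a1 lower, 1 of 58 each, where 4.85% of all genes were higher and 4.14% lower, and Eif4a2 was not called. The libraries did not overlap for Eif4h and Eif1 (3.45%, against 4.15% of all genes).

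Set directly against sgLkb1, the libraries labelled sgCebpa/b/d had 7 of the 58 lower (12.1%, where 3.12% of all genes were lower): Eif4h, Eif3c, Eif5, Eef2, Eif4g3, Eif2s2 and Eif4ebp1. None was higher by edgeR, where 2.83% of all genes were higher, although 2 were higher at an unadjusted p under 0.05. Both DESeq2 and limma on log2(TPM + 1) called Eef2k higher. That gene met the count rule mostly through the sgCebpa/b/d libraries, so these calls are not independent of how it was chosen. Without the libraries that have no animal number the one call was Eif4h, lower (1.72% of the 58, where 1.63% of all genes were lower and 1.6% higher). The MT-numbered libraries alone gave 6 of the 58 lower (10.3%), where 3.3% of all genes were lower. Over all libraries the median was -0.11, that of all genes 0.03. Libraries did not overlap for 6 of the 58 (10.3%, against 5.08% of all genes). A test of any difference across the 3 groups called 10 of the 58 (17.2%), where 13.4% of all genes were called. The first comparison and the second share the sgInert libraries and so are not independent of each other.

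**Figure D2:**
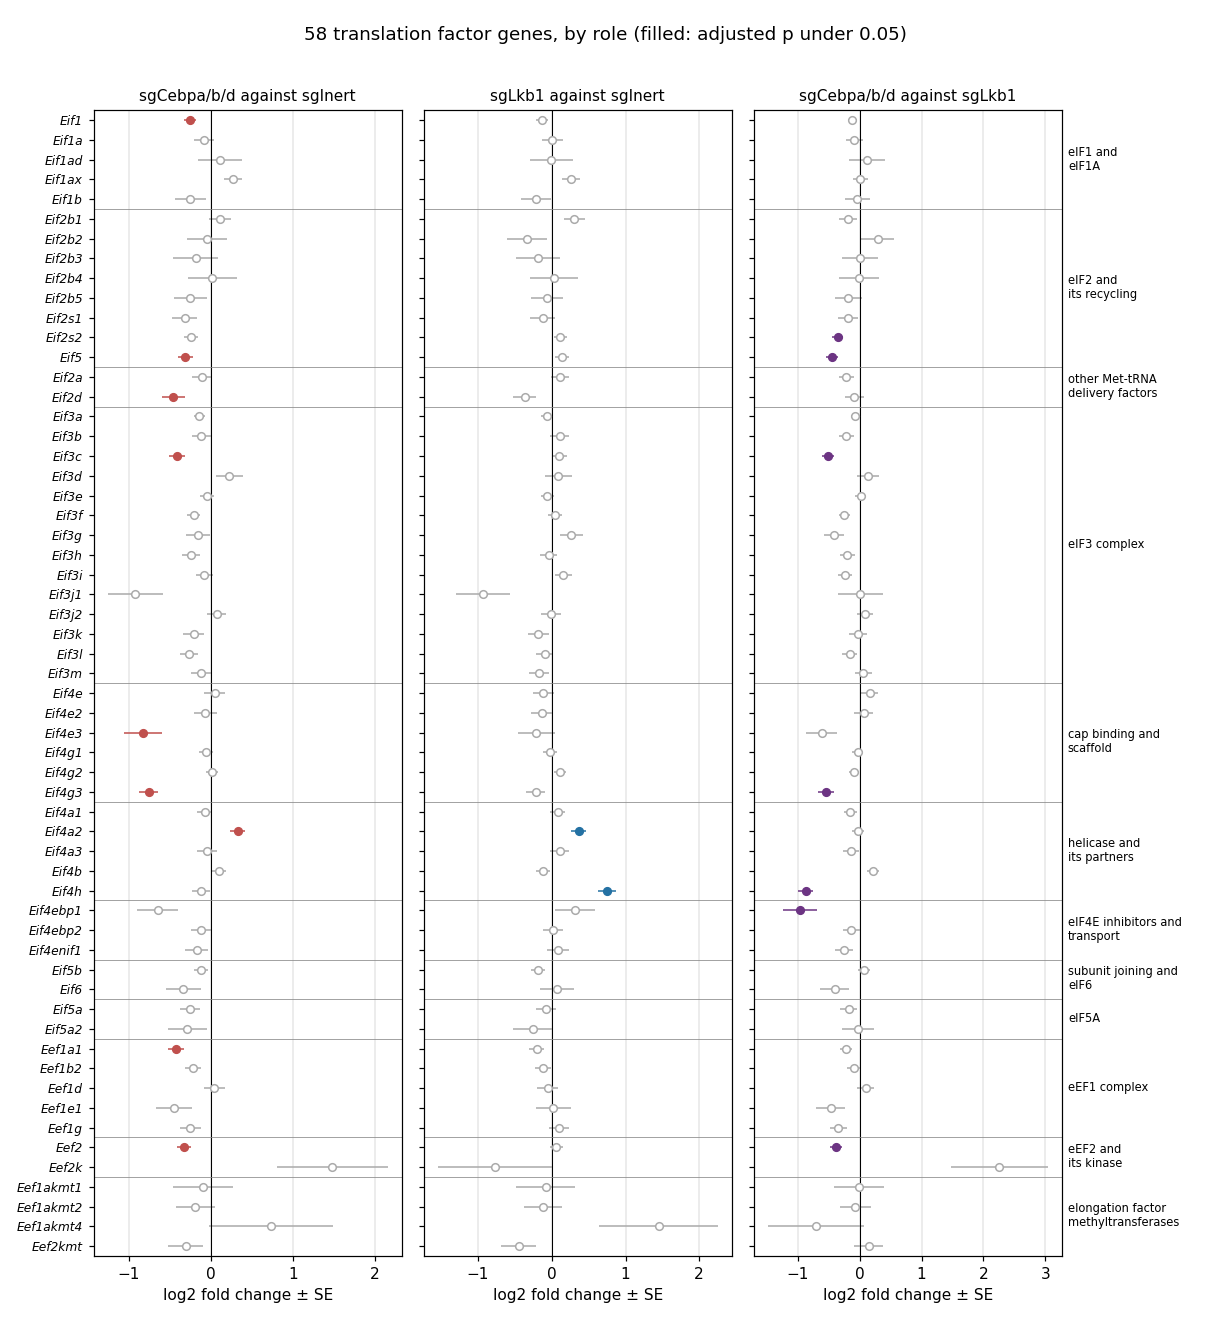
Log2 fold change ± SE of each of the 58 genes in the 3 comparisons, grouped by role, with filled points for an adjusted p under 0.05 and open grey points otherwise. Filled points in the first panel lie mostly left of 0 (8 of 9), in the second only Eif4a2 and Eif4h are filled, both right of 0, and the third has 7 filled points, all left of 0.

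The promoters of some of these genes are shown because C/EBP factors are the guide targets and because several of the genes were called together. RefSeq windows for GRCm38.p6 were matched by symbol for 45 of the 58 genes and 10 of the 12 that were called in any comparison, and the 250 bases before each start were searched on both strands. These RefSeq starts can lie inside the longest span of a gene in another annotation. Capitals mark the motifs TTGCNNAA (C/EBP), TGACG (core of the cAMP response element), CACGTG (E-box), GGGCGG (GC box), CCAAT and TATAAA.
Eif4g3, chr4:137993205-137993454, plus strand: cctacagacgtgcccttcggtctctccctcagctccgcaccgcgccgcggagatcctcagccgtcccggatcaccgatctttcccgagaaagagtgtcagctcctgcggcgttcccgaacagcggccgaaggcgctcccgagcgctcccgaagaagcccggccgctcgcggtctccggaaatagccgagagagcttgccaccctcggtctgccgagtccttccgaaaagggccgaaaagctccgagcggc
Eef1a1, chr9:78481725-78481974, minus strand: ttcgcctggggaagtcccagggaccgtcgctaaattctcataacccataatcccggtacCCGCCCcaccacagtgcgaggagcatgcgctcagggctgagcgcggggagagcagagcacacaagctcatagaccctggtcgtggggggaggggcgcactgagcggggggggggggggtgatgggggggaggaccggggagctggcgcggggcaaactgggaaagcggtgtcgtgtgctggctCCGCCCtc
Eef2, chr10:81176381-81176630, plus strand: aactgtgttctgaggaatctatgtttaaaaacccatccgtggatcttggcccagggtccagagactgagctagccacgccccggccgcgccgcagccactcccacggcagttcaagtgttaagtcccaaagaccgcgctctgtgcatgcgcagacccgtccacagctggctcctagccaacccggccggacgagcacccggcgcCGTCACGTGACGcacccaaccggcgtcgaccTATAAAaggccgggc
Eif2d, chr1:131152957-131153206, plus strand: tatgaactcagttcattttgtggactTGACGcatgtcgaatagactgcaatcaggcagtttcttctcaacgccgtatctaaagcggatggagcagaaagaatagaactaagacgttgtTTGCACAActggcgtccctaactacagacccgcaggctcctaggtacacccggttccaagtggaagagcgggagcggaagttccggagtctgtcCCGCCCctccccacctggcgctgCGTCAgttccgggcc
Eif4h, chr5:134639410-134639659, minus strand: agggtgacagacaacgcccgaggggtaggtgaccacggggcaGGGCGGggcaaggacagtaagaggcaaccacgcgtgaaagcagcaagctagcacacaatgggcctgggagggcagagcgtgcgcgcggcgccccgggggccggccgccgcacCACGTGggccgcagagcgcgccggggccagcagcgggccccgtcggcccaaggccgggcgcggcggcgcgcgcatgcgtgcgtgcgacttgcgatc
Eif4g3, whose call in sgCebpa/b/d had the smallest p of the 58 genes against sgInert, holds none of these letters. Eef1a1 has only GC boxes, 191 and 8 bases before the start. Eef2 has an E-box flanked by 2 overlapping TGACG cores, the 3 starting 46, 43 and 39 bases before the start, and a TATAAA at 15. Eif4h, whose rise in sgLkb1 had the smallest p of the 58 genes in that comparison, has an E-box at 96 and a GC box at 208. The C/EBP letters were found in Eif2d alone of the 10 called genes with a window, 132 bases before its start. Over the 59 windows of the 45 genes, 6.78% held them, and over 32851 windows of all genes 9.56% did. CACGTG was in 23.7% of the 59 and 6.02% of all windows, TGACG in 45.8% and 17.8%, GGGCGG in 67.8% and 32.7%, CCAAT in 23.7% and 33.8%, and TATAAA in 6.78% and 12.4%. The full element TGACGTCA, which contains the core, was in 0 of the 59 and 1.55% of all windows. A match describes letters and not binding.

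Gene positions below are on GRCm38 (mm10), from the GENCODE vM21 annotation, and cover each whole gene. Eif1 (chr11:100319885-100322096), which guards start codon choice, was at 440 to 467 CPM (median 448) in sgInert, at 330 to 437 (median 362) in the libraries labelled sgCebpa/b/d and at 392, 409, 419, 435 and 397 in sgLkb1. The sgInert libraries lie within a narrow band above all others. Its log2 fold change was -0.25 ± 0.07 (edgeR adjusted p = 0.0248) in the first comparison and -0.13 ± 0.08 (adjusted p = 0.391) for sgLkb1. Within sgCebpa/b/d the 4 numbered libraries were at 330 to 362 and the 3 others at 393 to 437. With the MT-numbered libraries alone the difference was -0.42 (adjusted p = 0.00419). The near copy Eif1b was not called, and Eif1 held 98.0%, 97.6% and 98.0% of their summed TPM at the group medians. None of the other 3 genes of this role (Eif1a, Eif1ax, Eif1ad) was called in any comparison.

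Of the 8 genes for eIF2, its exchange factor eIF2B and eIF5, 2 were called, Eif5 and Eif2s2. Eif5 (chr12:111538016-111546752) triggers GTP hydrolysis on eIF2. It was at 534 to 781 CPM (median 665) in sgInert, 462 to 597 (median 551) in the libraries labelled sgCebpa/b/d and 687, 712, 776, 761 and 667 in sgLkb1. All sgLkb1 libraries lie above all sgCebpa/b/d libraries, while sgInert overlaps both. The log2 fold change was -0.31 ± 0.09 against sgInert (adjusted p = 0.0263) and -0.44 ± 0.10 against sgLkb1 (adjusted p = 0.00623).

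Eif2s2 (chr2:154871410-154892935), the beta subunit of eIF2, was at 208 to 251 CPM (median 228) in sgInert, 165 to 219 (median 194) in the libraries labelled sgCebpa/b/d and 253, 211, 262, 269 and 257 in sgLkb1. The single sgLkb1 library at 211 overlaps the upper sgCebpa/b/d values. It was called against sgLkb1 only (-0.36 ± 0.09, adjusted p = 0.0181), and its value against sgInert was -0.24 ± 0.08 (adjusted p = 0.0696). Eif2s1, the alpha subunit that stress kinases phosphorylate, was not called (-0.32 ± 0.15, adjusted p = 0.204). Its values split within sgCebpa/b/d: the 4 numbered libraries were at 77.5 to 99.7 CPM and the others at 48.1, 57.5 and 55.2, where sgInert ran from 78.3 to 107. None of the 5 eIF2B subunit genes was called, with log2 fold changes from -0.25 to 0.12 against sgInert.

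Eif2d and Eif2a encode factors that can deliver initiator tRNA without eIF2. Eif2d (chr1:131153181-131187658) was at 19.3 to 31.3 CPM (median 22.2) in sgInert, 14.1 to 20.6 (median 15.9) in the libraries labelled sgCebpa/b/d and 18, 18, 22.4, 16.1 and 16.6 in sgLkb1. The first 2 groups overlap between 19.3 and 20.6, and sgLkb1 overlaps both. It was the call with the largest adjusted p (-0.46 ± 0.14, adjusted p = 0.0433). Leaving out any 1 of 12 libraries ended it (sgInert replicates 2, 5, 6 and 7, sgCebpa/b/d replicates 1, 3, 4, 5 and 6, sgLkb1 replicates 1, 2 and 5), with the highest adjusted p, 0.109, without sgInert replicate 5. Eif2a gave -0.11 ± 0.11 (adjusted p = 0.614).

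Of the 14 genes of eIF3, the scaffold that holds the preinitiation complex, Eif3c (chr7:126546455-126566411) alone was called. It was at 190 to 239 CPM (median 214) in sgInert, 118 to 183 (median 170) in the libraries labelled sgCebpa/b/d and 251, 204, 244, 228 and 213 in sgLkb1. Every sgCebpa/b/d library lies below every library of both other groups, and the 3 without an animal number were the lowest (132, 158 and 118). The log2 fold change was -0.42 ± 0.10 against sgInert (adjusted p = 0.00594) and -0.52 ± 0.10 against sgLkb1 (adjusted p = 0.00332), and 0.10 ± 0.10 for sgLkb1 against sgInert (adjusted p = 0.680). Among the other 13, 11 were below 0 against sgInert and 6 of the 14 had an unadjusted p under 0.05, Eif3c included. Eif3e, the most abundant by TPM, gave -0.04 ± 0.08 (adjusted p = 0.810). The copy Eif3j1 gave -0.93 ± 0.33 (adjusted p = 0.0853) and Eif3j2 gave 0.07 ± 0.12, with Eif3j1 at 3.51% to 18.04% of their summed TPM in sgInert and 3.76% to 6.57% in sgCebpa/b/d.

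At the capped end of the mRNA, 2 of 6 genes were called, Eif4g3 and Eif4e3. Eif4g3 (chr4:137993022-138208508) encodes a scaffold of the eIF4G family, a homolog of eIF4G1. It was at 124 to 196 CPM (median 164) in sgInert, 78.9 to 109 (median 92.8) in the libraries labelled sgCebpa/b/d and 164, 116, 122, 148 and 144 in sgLkb1. Each sgCebpa/b/d library lies below each library of the other groups. The log2 fold change of -0.76 ± 0.12, or 0.590 of the sgInert level, had the smallest adjusted p of the 58 genes in that comparison (0.000164), and against sgLkb1 it was -0.54 ± 0.13 (adjusted p = 0.0118). Eif4g1 gave -0.06 ± 0.08 (adjusted p = 0.756), with a 95% interval of -0.22 to 0.11, and its share of the summed TPM of the 2 genes had a median of 57.1% in sgInert, of 70.1% in the libraries labelled sgCebpa/b/d and of 61.7% in sgLkb1. Eif4g2, which lacks the eIF4E-binding part and is the most abundant of the 3, gave 0.01 ± 0.08.

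Eif4e3 (chr6:99625135-99666771), an atypical cap-binding relative of eIF4E, was at 13.4 to 35.3 CPM (median 26.6) in sgInert, 9.14 to 20.2 (median 14.6) in the libraries labelled sgCebpa/b/d and 24.1, 12.5, 20.5, 19.5 and 28.7 in sgLkb1. The groups overlap, with 2 sgInert libraries at 13.4 and 14.7. It fell by 0.83 ± 0.24 on the log2 scale (adjusted p = 0.0256). With the MT-numbered libraries alone it gave -0.62 (adjusted p = 0.219). Eif4e itself, the cap-binding protein of most initiation, gave 0.04 ± 0.13 (adjusted p = 0.883, 95% interval -0.20 to 0.29) and in sgLkb1 -0.11 ± 0.14 (adjusted p = 0.739).

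Both genes called higher in any comparison belong to the helicase and its partners. Eif4h (chr5:134619721-134639490), a small partner that stimulates the eIF4A helicase, was at 241 to 392 CPM (median 273) in sgInert, 218 to 317 (median 299) in the libraries labelled sgCebpa/b/d and 512, 497, 493, 492 and 518 in sgLkb1. The 5 sgLkb1 libraries lie close together and above every other library. The log2 fold change of sgLkb1 was 0.75 ± 0.12, or 1.69-fold (adjusted p = 0.000615), and that of sgCebpa/b/d against sgLkb1 was -0.87 ± 0.12 (adjusted p = 8.65e-05). Against sgInert the libraries labelled sgCebpa/b/d gave -0.12 ± 0.11 (adjusted p = 0.580).

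Eif4a2 and Eif4a1 are the paralogous helicases themselves, and here Eif4a2 (chr16:23107444-23114136) was the more abundant. It was at 636 to 985 CPM (median 904) in sgInert, 985 to 1263 (median 1066) in the libraries labelled sgCebpa/b/d and 1072, 1079, 1150, 969 and 1248 in sgLkb1. The lowest sgCebpa/b/d library lies barely above the highest sgInert library, and sgLkb1 overlaps sgInert by 1 library. It was the one factor called higher with both viruses, by 0.33 ± 0.09 (adjusted p = 0.0223) and 0.36 ± 0.10 (adjusted p = 0.0321), against the same sgInert libraries. Among the MT-numbered libraries alone the values were 0.13 (adjusted p = 0.459) and 0.18 (adjusted p = 0.288). The 4 ZR libraries are all sgInert, and the 2 lowest sgInert values, 636 and 795, are among them. Eif4a1 gave -0.08 ± 0.09 and 0.08 ± 0.10, and its share of the summed TPM of both had a median of 21.7% in sgInert, of 18.2% in the libraries labelled sgCebpa/b/d and of 18.8% in sgLkb1.

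Of the inhibitors of eIF4E, Eif4ebp1 (chr8:27260329-27276674) was called in one comparison. The 4E-BP proteins sequester eIF4E until mTORC1 phosphorylates them. It was at 7.73 to 16.2 CPM (median 11.4) in sgInert, 2.17 to 11.8 (median 7.46) in the libraries labelled sgCebpa/b/d and 13.5, 10.7, 15.9, 17.4 and 18.3 in sgLkb1. All 3 groups overlap. Against sgLkb1 it was at 0.510 of the level (-0.97 ± 0.27, adjusted p = 0.0358), and leaving out any 1 of 7 libraries (sgCebpa/b/d replicates 2, 3 and 6, sgLkb1 replicates 1, 3, 4 and 5) ended the call. Eif4ebp2 gave -0.14 ± 0.14 in the same comparison (adjusted p = 0.650), and Eif4enif1, the eIF4E transporter, -0.25 ± 0.15 (adjusted p = 0.388).

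Over the 19 libraries the genes whose log2 CPM was most like that of Eif4ebp1 by Spearman rank were Mrpl20 (0.81), Rpl35 (0.80), Ciapin1 (0.79), Mtch2 (0.78) and Pthlh (0.78). The points share groups, depth and animals, so the ranks are a description.

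Subunit joining and the late factors showed no calls. Eif5b gave -0.12 ± 0.08 (adjusted p = 0.407) and Eif6 -0.34 ± 0.22 (adjusted p = 0.378) for sgCebpa/b/d against sgInert. Eif5a, the hypusine-carrying factor that helps ribosomes past difficult peptide bonds, was at 68.7 to 88.9 CPM (median 82.3) in sgInert and at 44.2 to 84.7 (median 74.1) in the libraries labelled sgCebpa/b/d. Its lowest 3 values there (50.5, 63.1 and 44.2) are the 3 libraries with no animal number, and the difference was -0.26 ± 0.13 (adjusted p = 0.229). Eif5a2 gave -0.29 ± 0.24 (adjusted p = 0.520), and Eif5a held 92.0%, 91.9% and 92.0% of their summed TPM at the group medians.

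Of the elongation factors, Eef1a1 and Eef2 were lower in the libraries labelled sgCebpa/b/d. Eef1a1 (chr9:78478449-78489151) was at 4882 to 6757 CPM (median 5744) in sgInert, 3311 to 4729 (median 4376) in the libraries labelled sgCebpa/b/d and 4630, 4802, 5409, 4741 and 4827 in sgLkb1. All 7 sgCebpa/b/d libraries lie below all 7 sgInert libraries, with sgLkb1 between and overlapping both. The log2 fold change was -0.43 ± 0.09 (adjusted p = 0.00431), or 0.744 of the sgInert level, and -0.20 ± 0.10 for sgLkb1 (adjusted p = 0.303). With the MT-numbered libraries alone sgLkb1 was called too (-0.32, adjusted p = 0.0494). The nucleotide exchange subunits of eEF1 were not called against sgInert: Eef1b2 gave -0.22 ± 0.10 (adjusted p = 0.165), Eef1d 0.04 ± 0.13, Eef1g -0.25 ± 0.12 and the associated Eef1e1 -0.45 ± 0.22.

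Eef2 (chr10:81176631-81182498), the translocase, was at 587 to 731 CPM (median 680) in sgInert, 413 to 590 (median 551) in the libraries labelled sgCebpa/b/d and 743, 652, 763, 665 and 676 in sgLkb1. The highest sgCebpa/b/d library (590) reaches just past the lowest sgInert library (587), and all lie below sgLkb1. It fell by 0.32 ± 0.08 against sgInert (adjusted p = 0.0132) and by 0.39 ± 0.09 against sgLkb1 (adjusted p = 0.0117) on the log2 scale, and sgLkb1 against sgInert gave 0.06 ± 0.09 (adjusted p = 0.797).

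Its kinase Eef2k, which inhibits eEF2 by phosphorylation, was barely detected. It was at 0 to 2.55 CPM (median 1.22) in sgInert, 0.959 to 7.60 (median 2.68) in the libraries labelled sgCebpa/b/d and 0.231, 2.35, 0.607, 0.590 and 0 in sgLkb1. The edgeR value against sgLkb1 was 2.26 ± 0.78 (adjusted p = 0.102), DESeq2 called it (adjusted p = 0.0273), and without sgLkb1 replicate 2 edgeR did too (adjusted p = 0.0306). Counts this low set no firm order between the groups, and the gene met the count rule mostly through sgCebpa/b/d. Of the methyltransferases, Eef1akmt2 gave -0.19 ± 0.23 (adjusted p = 0.693) against sgInert, and none of the 4 was called.

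**Figure D3:**
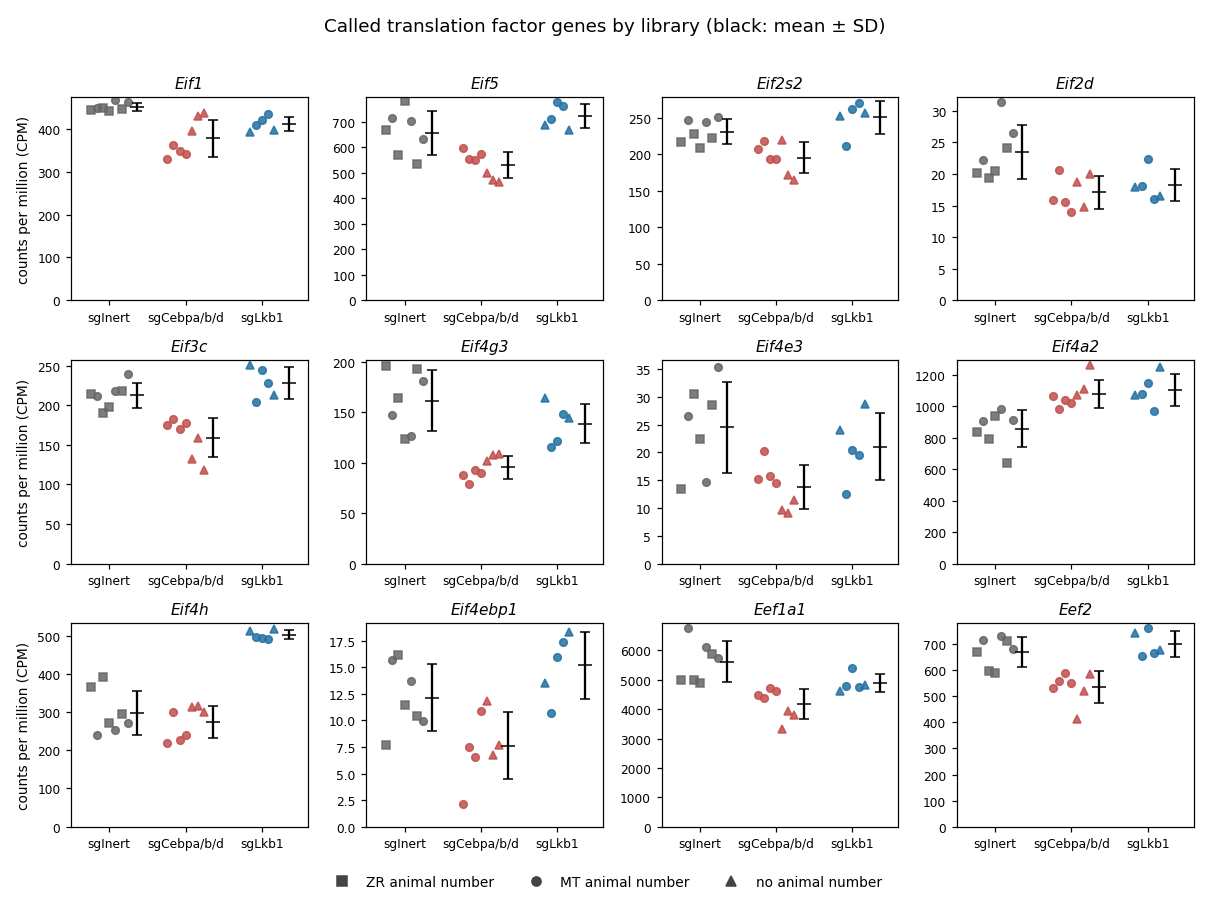
CPM in every library for the 12 genes called in at least one comparison, with one panel per gene and a linear axis from 0. Squares, circles and triangles are libraries with a ZR, an MT or no animal number, and black bars give the mean ± SD of 7, 7 and 5 libraries. The 5 sgLkb1 libraries of Eif4h (492 to 518) stand above all others, and the sgCebpa/b/d libraries of Eif4g3, Eif3c and Eef1a1 lie below all sgInert libraries.

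The wider translation apparatus was compared through lists. Of 80 cytosolic ribosomal protein genes tested, 32 (40%) were lower and 0 higher in the libraries labelled sgCebpa/b/d against sgInert (median -0.31). Among all genes 5.36% were lower and 4.73% higher there. Against sgInert, sgLkb1 had 2 of the 80 lower (2.5%, median -0.13), where 2.97% of all genes were lower. The 9 factor genes known to carry the same 5′ terminal oligopyrimidine (TOP) start as ribosomal protein mRNAs, which couples them to mTORC1, had a median of -0.22, with 2 of them, Eef1a1 and Eef2, called. Both values are for sgCebpa/b/d against sgInert. In that comparison these 9 lay below 0 about as often as the 58 genes did (77.8% against 77.6%). Called lower were 22.2% of the 9 and 13.8% of the 58. Of 75 mitochondrial ribosomal protein genes 0 were called there by edgeR, DESeq2 or limma, and 7 had an unadjusted p under 0.05 (median -0.08).

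The regulators upstream showed few calls. Of all genes 5.36% were lower and 4.73% higher in sgCebpa/b/d against sgInert, and 2.97% and 2.81% in sgLkb1. In the mTORC1 list 0 of 12 genes were called against sgInert with either virus by edgeR, with 1 and 2 at an unadjusted p under 0.05, and limma on log2(TPM + 1) called 1 in sgLkb1. For the eIF2 kinases and phosphatase 0 of 7 were called by edgeR, DESeq2 or limma, with 2 and 0 at an unadjusted p under 0.05. The release and recycling factors (6 genes) and the hypusine and diphthamide enzymes (8 genes) had 0 calls and 0 at an unadjusted p under 0.05 with either virus. For the poly(A)-binding list 0 of 5 were called against sgInert, with 1 at an unadjusted p under 0.05 in each comparison, and Paip2, an inhibitor of the poly(A)-binding protein, was higher in sgCebpa/b/d than in sgLkb1 (0.40 ± 0.11, adjusted p = 0.0340).

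Calls among the regulators and tRNA charging enzymes came in the libraries labelled sgCebpa/b/d. Mknk1, one of the kinases of eIF4E, fell by 0.67 ± 0.17 on the log2 scale (adjusted p = 0.0117), and Sephs2, which makes the selenium donor for selenocysteine, by 0.64 ± 0.14 (adjusted p = 0.00504). Mknk1 was not called by DESeq2 with transcript lengths, by limma or with the MT-numbered libraries alone. Sephs2 was not called with the MT-numbered libraries alone either. Of 22 synthetase genes 3 were called: Aars (-0.55 ± 0.14) and Iars (-0.67 ± 0.16) were lower, and Wars, which interferon is known to induce, was higher (0.98 ± 0.11, adjusted p = 2.93e-06). That is 9.09% lower and 4.55% higher, where 5.36% of all genes were lower and 4.73% higher. With the MT-numbered libraries alone 1 of the 22 was lower and 1 higher. In sgLkb1 against sgInert 0 of the 22 were called by edgeR, DESeq2 or limma, and 0 had an unadjusted p under 0.05. Aars, Iars, Wars and Sephs2 were called in the same directions against sgLkb1.

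Markers of other cell types differed between the same groups. Summed fibroblast markers (8 genes, 2 of them called higher in each comparison with sgInert) ran from 4.99 to 55.3 TPM in sgInert, 31.6 to 145 in the libraries labelled sgCebpa/b/d and 48.4 to 144 in sgLkb1. Endothelial markers (4 of 6 higher in sgCebpa/b/d, 0 of 6 in sgLkb1 by edgeR, 1 by DESeq2, 3 by limma and 4 at an unadjusted p under 0.05) ran from 5.56 to 17.4, 6.09 to 93.8 and 20.9 to 74.9 TPM, with 70.9 to 93.8 in the 3 sgCebpa/b/d libraries with no number. None of these 14 markers was at 0 throughout a group. Immune markers ran from 73.3 to 295, 10.8 to 47.2 and 21.4 to 120 TPM, led by Lyz1, which alone of the 6 tested was called and was lower. The sum follows Lyz1, since 4 of the 6 lay above 0 in each comparison with sgInert without a call, among them Ptprc (3.78 ± 1.28, adjusted p = 0.0658, in sgCebpa/b/d), with Adgre1 and Cd3e at 0 in sgInert. In the 3 sgCebpa/b/d libraries with no number Lyz1 was at 0.17 to 1.45 TPM and Ptprc at 10.5 to 21.63, so the sum does not follow Ptprc. Markers of alveolar type II cells, the cells these tumors are thought to arise from, ran from 46961 to 64954, 30503 to 55630 and 38355 to 50940 TPM (4 and 5 of 8 called lower), and the epithelial markers from 397 to 748, 514 to 854 and 713 to 1050 TPM (1 of 5 higher in each). Red cell markers summed to at most 4.89 TPM. The part of these cells in the values above was not tested, and in bulk samples fewer cells of a type and less RNA per cell cannot be told apart.

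The comparison was also made within the MT series, where all 10 libraries have an animal number. These numbers give only 2 animals in each group, so part of the spread behind these calls is within animals. There endothelial sums were 6.09 to 19.02 TPM in sgCebpa/b/d and 8.96 to 17.4 in sgInert, and 0 of 5 endothelial markers tested were called between them, and 6 of 8 fibroblast markers were higher in sgCebpa/b/d. With these libraries 7 of the 58 genes were lower and 0 higher in sgCebpa/b/d against sgInert (median -0.17), where 4.25% of all genes were lower and 4.3% higher, namely Eif4g3 (-0.80), Eef1a1 (-0.45), Eif3c (-0.34), Eef2 (-0.35), Eif1 (-0.42), Eef1b2 (-0.49) and Eef2kmt (-0.83). The first 5 were also called over all libraries. In sgLkb1 Eif4h was higher (0.95, adjusted p = 0.000175) and Eef1a1 lower, 1 of 58 each, where 3.61% of all genes were higher. Endothelial sums in the sgLkb1 libraries of this series were 20.9 to 39.9 TPM. Against sgInert 1 of 5 endothelial and 5 of 8 fibroblast markers were called higher in them. The ribosomal protein genes then had 59 of 80 lower in sgCebpa/b/d and 22 of 80 in sgLkb1, where 3.36% of all genes were lower in the latter.

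Sex was tested where both groups have both sexes. In the 14 sgInert and sgCebpa/b/d libraries 0 of 57 factor genes tested had a difference that varied with sex by edgeR, where 21 of 12500 genes (0.168%) had one. At an unadjusted p under 0.05 there were 7 of the 57 (12.3%), close to the 11% of all genes. The smallest p was that of Eif2s1, at -0.06 in females and -0.76 in males (adjusted p = 0.197), followed by Eif5a (-0.0046 and -0.63, adjusted p = 0.224). In sgCebpa/b/d the males are the 3 libraries with no number and the females the 4 of the MT series, so sex and series cannot be told apart.

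The called genes were then followed over 13 other settings and 19 fits that each leave out 1 library. Eif4g3 in the libraries labelled sgCebpa/b/d against sgInert and Eif4h in both of its comparisons stayed called in all 13 settings and all 19 fits, and treating the un-numbered libraries of each virus as a single animal ended every other call. Eif4g3 against sgLkb1 stayed called in 19 of 19 fits and 11 of 13 settings, with adjusted p = 0.184 when the un-numbered libraries were taken so and adjusted p = 0.0744 without them. Eef1a1 and Eif3c against sgInert stayed called in 19 of 19 fits and 11 of 13 settings, and Eef2 in 19 and 9. Without the 5 libraries that have no animal number these 3 lost the call, at -0.30 (adjusted p = 0.0787), -0.27 (adjusted p = 0.0830) and -0.26 (adjusted p = 0.0900). Eif1 (16 and 7), Eif4a2 (18 and 9), Eif4e3 (14 and 7), Eif5 (14 and 5) and Eif2d (7 and 4) were less stable. In no setting did any of the 18 called values change sign.

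**Figure D4:**
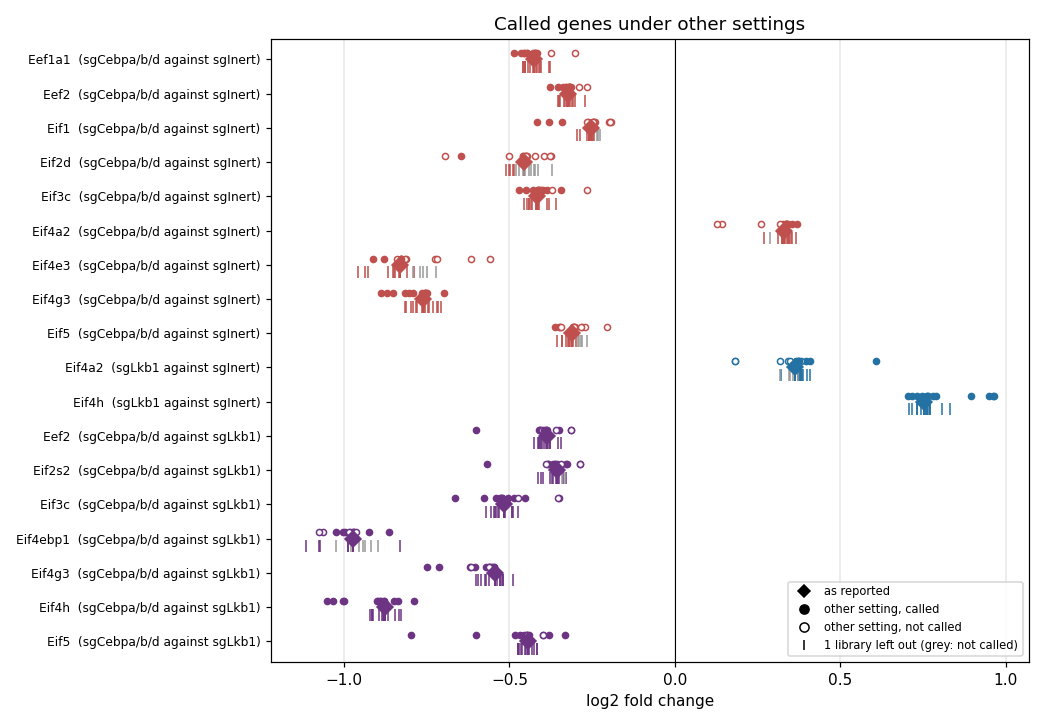
Log2 fold change of each of the 18 called values as reported (diamonds), in 13 other settings (circles, open where not called) and with 1 library left out (ticks, grey where not called). All values of a row stay on one side of 0, and the rows of Eif4g3 against sgInert and of Eif4h hold no open circle or grey tick.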

How the data were processed

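RNA of sorted neoplastic cells was measured in 19 libraries. Per the labels and the methods, the authors aligned paired reads with STAR 2.6.1d to mm10 and quantified genes with RSEM 1.2.30. The authors deposited 1 RSEM table a library, with unnormalized expected counts and with TPM, which are scaled by length and depth. A whole-series table of normalized values and the authors' comparison columns (fold changes and p-values by DESeq2 1.26.0) were not used. Its 19 per-sample columns were left out.

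Expected counts were rounded. Genes were filtered with filterByExpr (minimum count 10, total 15), TMM-normalized and tested with edgeR 4.0.16 (R 4.3.3) by glmQLFit and glmQLFTest in 1 model of 19 libraries. A call is a Benjamini-Hochberg adjusted p under 0.05 over all 13986 genes, and log2 CPM used a prior count of 2. Alternatives used DESeq2 1.42.0, limma 3.58.1 on log2(TPM + 1), other filters, covariates, blocks and libraries. Figures used matplotlib 3.10.9. Coordinates are GRCm38 (mm10), starting from RefSeq windows. No pair of libraries in a group agreed within sampling noise (chi-square per gene 6.67 to 73.7). Counts were simulated for sgCebpa/b/d against sgInert over 13698 genes, with changed genes drawn at random from all genes tested. Of these 14.7% of 95 genes changed by 0.5 on the log2 scale and 51.0% of 98 changed by 1 were called. So were 5 unchanged genes.

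Genes and lists were chosen with earlier results of these data known. The genes named are all called members, the most abundant of each role, set paralogue pairs and key factors, the highest and lowest by TPM, near misses of the count rule, the guide targets, called pathway genes and the 5 genes ranked closest to Eif4ebp1. A further allele that the mice of all groups carry is not reported here.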

Additional observations from a re-analysis of the deposited data

Results flagged for a closer look

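Some libraries lay far from the rest of their group by Dixon's test at the 95% level, applied to log2 CPM of the 30 named genes in each of the 3 groups. Of 90 groups 6 were flagged, where chance flags about 1 in 20. Eef1a1 in sgLkb1 replicate 3 was at 12.40, above the others (12.18 to 12.24). Eef2 in sgCebpa/b/d replicate 5 was at 8.69, below the others (9.02 to 9.21), and its call against sgInert holds with that library left out. Eef2k in sgInert replicate 1 was at -1.63, where it had 0 counts (others 0.16 to 1.52). Eif2s2 in sgLkb1 replicate 2 was at 7.73 (others 7.98 to 8.08). Eif4ebp1 in sgCebpa/b/d replicate 1, the shallowest library, was at 1.32 (others 2.79 to 3.60). Eif5a in sgInert replicate 4 was at 6.11 (others 6.35 to 6.48). No difference between the sexes passed the test.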

How the results depend on the processing

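The 18 called values kept their direction in all 13 other settings and all 19 fits without 1 library, while 106 single values lost the call. For sgCebpa/b/d against sgInert the 8 genes called lower became 4 with no filter on low counts, 3 with limma on log2(TPM + 1), 5 with libraries of 1 animal number summed, 5 with only the 2 groups fitted, 1 with the libraries without a number taken as 1 animal per virus, 2 with those 5 libraries left out, 3 at an adjusted p under 0.01 and 0 with an absolute log2 fold change above 1. The 1 called higher became 2 by DESeq2 with transcript lengths, and 0 with the title series as a covariate, the MT-numbered libraries only, the libraries without a number as 1 animal, the fold threshold or the adjusted p under 0.01. For sgLkb1 against sgInert the 0 called lower became 1 (Eef1a1) with sex as a covariate or the MT-numbered libraries only, and the 2 called higher became 1 with sex or title series as a covariate, the MT-numbered libraries, animals summed, the libraries without a number as 1 animal or left out, or the adjusted p under 0.01, and 0 with the fold threshold. For sgCebpa/b/d against sgLkb1 the 7 called lower became 1 with the libraries without a number as 1 animal or left out, 3 at the adjusted p under 0.01 and 0 with the fold threshold, and the 0 called higher became 1 (Eef2k) by DESeq2 with or without transcript lengths, by limma, or with sex or title series as a covariate. The cause was not tested, apart from fewer samples or a stricter threshold.

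Leaving out 1 library gave 5 to 9 lower and 0 to 1 higher for sgCebpa/b/d against sgInert (5 without sgCebpa/b/d replicate 6, and 0 higher without its replicate 7). It gave 0 lower and 1 to 2 higher for sgLkb1 against sgInert, where Eif4a2 was lost without sgInert replicate 1 or 3 or sgLkb1 replicate 2, 3 or 5. It gave 5 to 7 lower and 0 to 1 higher for sgCebpa/b/d against sgLkb1, where Eef2k was called without sgLkb1 replicate 2. Eif1 was lost without sgCebpa/b/d replicate 1, 3 or 4, Eif4e3 without sgInert replicate 3 or 7 or sgCebpa/b/d replicate 5, 6 or 7, Eif5 against sgInert without sgInert replicate 2, 4 or 5 or sgCebpa/b/d replicate 6 or 7, and Eif2s2 without sgLkb1 replicate 3 or 4.

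On log2(TPM + 1) the median of all genes for sgLkb1 against sgInert was 0.18 and that of the 58 genes 0.18, and for sgCebpa/b/d against sgLkb1 they were -0.15 and -0.30, so relative to all genes the 58 moved by -0.00092 and -0.14 (-0.02 and -0.14 on counts). Of all calls 84.1% were then higher for sgLkb1 against sgInert (48.6% on counts) and 16.8% for sgCebpa/b/d against sgLkb1 (47.5% on counts). With the replicate block 6 genes were lower and 1 higher for sgCebpa/b/d against sgInert, 0 and 2 for sgLkb1 against sgInert, and 6 and 0 for sgCebpa/b/d against sgLkb1. Same-numbered libraries share only a number, since their deviations correlated by -0.15 to 0.23 over 17 pairs, 2 of them over 0.1, and 3 of 19 libraries correlated best with their own number. On simulated counts most changes of 0.5 on the log2 scale were missed. The changed genes there were drawn from all genes tested, so that share need not hold for the 58 genes. Whether a member without a call may still differ by 0.5 depends on its own interval. For sgCebpa/b/d against sgInert the interval of Eif4g1 (-0.22 to 0.11) excludes such a change, and that of Eif6 (-0.76 to 0.08) does not.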
